A study of Mus musculus with 2 samples.

Results

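Natural killer (NK) cells low in the granzyme transcript Gzmc were examined in single-cell RNA data of mouse tumours, and 968 of 12252 kept cells were members. Cells were kept with 200 or more genes and no more than 20% of UMIs (unique molecular identifiers, each counting 1 captured RNA molecule) from mitochondrial genes. Members were chosen by measured values: 2 or more UMIs of the NK receptor genes Ncr1 and Klre1 together, no UMI of the T cell genes Cd3e or Cd3d, and under 2 UMIs of the cycling genes Mki67 and Top2a. Their Gzmc was under 1500 CPM, the gene's UMIs scaled to a total of 1000000 UMIs. The levels of these 7 genes, and every difference from Gzmc-high NK cells, are descriptions with no test. The cells were CD45+ (leukocytes) and had been sorted from subcutaneous tumours of MFC, a mouse forestomach carcinoma line, in wild-type BALB/c mice. One group received thonzonium bromide (TB), a surfactant that in other work blocks the vacuolar proton pump, at 50 mg/kg from day 6 on alternate days, and the other is labelled PBS. Tumours were taken on day 10. There was 1 library per group and the number of mice behind it is not given in the sources used here, so all intervals cover counting error only and no difference between the groups has a replicate check.

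NK cells are innate lymphocytes that kill infected or transformed cells without prior priming. They release perforin and granzymes from granules, and they read target cells through inhibitory and activating receptors, among them the Ly49 (Klra) and NKG2 (Klrc, Klrk1) lectins. In mice, NK cells that mature gain the integrin Itgam (CD11b) and the egress receptor S1pr5, and they lose Cd27. Gzmc lies in the granzyme B gene cluster with Gzmb, Gzmd, Gzme, Gzmf and Gzmg, and in mice it is known from strongly activated lymphocytes and from type 1 innate lymphoid cells.

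The TB library held 561 members among 5833 kept cells, with 4494568 UMIs in all and a median of 6603 UMIs and 2319 genes per member. The PBS library held 407 members among 6419 kept cells, with 2793472 UMIs and medians of 5887 UMIs and 2133 genes. Shallow members, under 2000 UMIs, numbered 7 with TB and 39 with PBS. Haemoglobin genes took 0.238% of members' UMIs with TB and 2.01% with PBS. The libraries shared 14 barcodes, of which 1 belonged to a member with TB and 0 with PBS. No doublet caller was run.

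Members made up a larger part of the kept cells and of the NK cells with TB. They were 9.62% of kept cells (8.87 to 10.4, exact Clopper-Pearson 95% interval) with TB and 6.34% (5.76 to 6.96) with PBS. Kept barcodes outside the NK, T cell, B cell, monocyte or macrophage and neutrophil classes numbered 1981 with TB and 3816 with PBS. Haemoglobin genes took 3.02% of their UMIs with TB and 14.9% with PBS, at median depths of 6393 UMIs with TB and 2554.5 with PBS. Their part in this share was not tested. Among all NK cells by the same receptor and T cell limits, they were 561 of 1088 with TB and 407 of 1111 with PBS. That is 51.6% (48.5 to 54.6) with TB and 36.6% (33.8 to 39.5) with PBS. Gzmc-high NK cells were 34.1% of NK cells with TB and 42.1% with PBS, and cycling NK cells were 14.3% with TB and 21.2% with PBS. Depth moved with the first share: members were 10.7% with TB and 8.34% with PBS among cells of at least 2000 UMIs. Cells with a single Ncr1 or Klre1 UMI that otherwise met the limits numbered 143 with TB and 327 with PBS, at median depths of 6937 UMIs with TB and 2680 with PBS.

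Most members with TB had no Gzmc UMI, and most with PBS had at least 1. Members without a Gzmc UMI numbered 367 (65.4%) with TB and 144 (35.4%) with PBS. With each cell thinned to 1000 UMIs, which left out 1 shallower member with TB and 14 with PBS, a Gzmc UMI was found in 10.4% of members with TB and 24.7% with PBS. In B cells, which should lack the gene, the thinned shares were 3.68% with TB and 18.1% with PBS. The B cells had median depths of 3717 UMIs with TB and 3832 with PBS, so Gzmc UMIs were more frequent in the PBS library outside NK cells as well. The part of free RNA in the members' difference was not tested. At the limit, the highest member had 1498 CPM and the lowest excluded cell 1573 CPM with TB, and 1489 and 1504 CPM with PBS. Members within 250 CPM of the limit numbered 10 with TB and 25 with PBS.

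**Figure D1:**
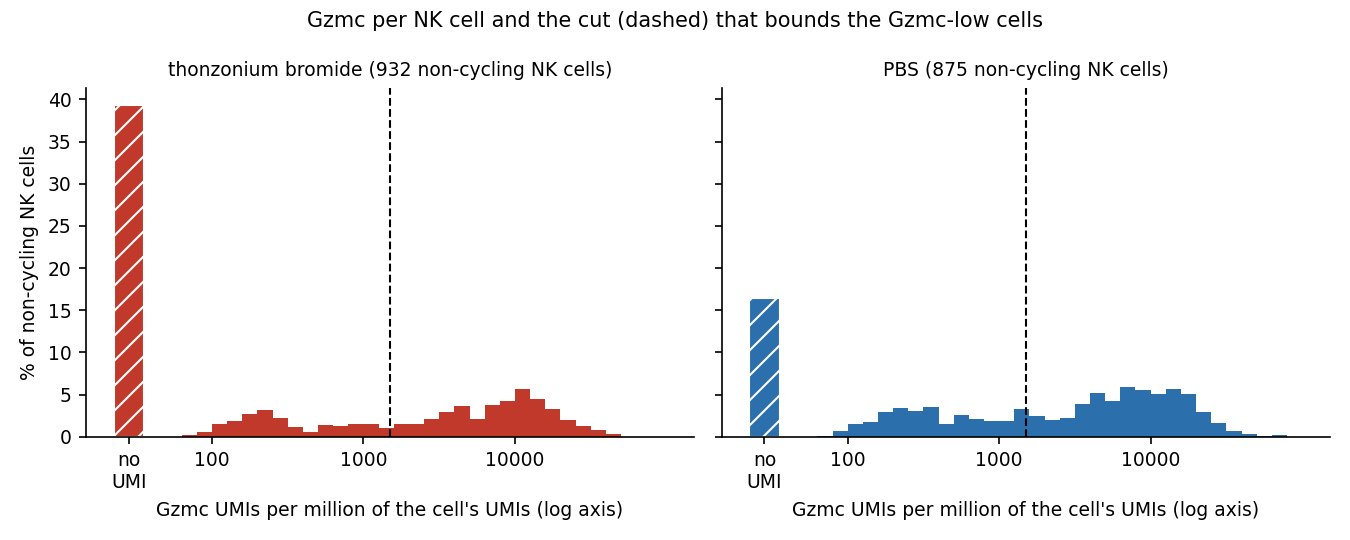
Percentage of non-cycling NK cells (y axis) by Gzmc CPM of the cell (x axis, log scale, with cells without a UMI at the left) in 932 cells of the thonzonium bromide library (left) and 875 of the PBS library (right). The dashed line is the limit of 1500 CPM; cells without a UMI were 39.4% with TB and 16.5% with PBS.

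The name of mature NK cells was checked against marker genes. All 6 markers given for these cells and all 11 other NK markers exceeded 50 CPM in members of both libraries. Gzmc-high NK cells exceeded it for 5 of the 6 and for all 11 in both libraries, so passing this level does not show maturity. The 6 markers of type 1 innate lymphoid cells summed to 94.6 CPM with TB and 114 CPM with PBS, and none of them reached 50 CPM. Zfp683, which encodes the residency factor Hobit, had 0 UMIs in members of both libraries. T cell markers summed to 1027 CPM with TB and 919 CPM with PBS, mostly through the receptor constant region Trbc1 at 686 CPM with TB and 622 CPM with PBS. Mature and less mature profiles were mixed. Thinned to 2000 UMIs, Itgam without Cd27 was seen in 83 of 554 members with TB and 51 of 368 with PBS, and Cd27 without Itgam in 73 members with TB and 61 with PBS. Neither gene was seen in 69.7% of members with TB and 67.7% with PBS, so most members could not be placed at this depth. Without thinning, Itgam without Cd27 was seen in 140 members with TB and 78 with PBS, and Cd27 without Itgam in 162 with TB and 113 with PBS, so the less mature profile was then the more frequent in both libraries.

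Gzma and Ccl5 were the most abundant of the 6 markers. Gzma, a tryptase of cytotoxic granules, had 9177 CPM with TB and 6842 CPM with PBS in members, and 2449.8 CPM with TB and 1952 CPM with PBS in Gzmc-high NK cells. Ccl5, a chemokine that draws T cells and dendritic cells, had 6049 CPM with TB and 3022 CPM with PBS in members, and 125 CPM with TB and 212 CPM with PBS in Gzmc-high NK cells. It was thus 48.4-fold higher in members than in Gzmc-high cells with TB and 14.3-fold higher with PBS. Itga2, the collagen-binding integrin CD49b by which NK cells are often sorted, had 141 CPM with TB and 99.5 CPM with PBS in members, and 15.5 CPM with TB and 20.9 CPM with PBS in Gzmc-high cells. The 3 Ly49 markers were less separated. Klra4 was 1.85-fold higher in members than in Gzmc-high cells with TB and 1.62-fold with PBS, Klra9 1.75-fold with TB and 1.67-fold with PBS, and Klra8 1.5-fold with TB and 1.32-fold with PBS.

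Single members varied widely around these levels. The lower quartile, median and upper quartile of Gzma per member were 3543, 9344 and 17189 CPM with TB and 1610.3, 5899 and 11816 CPM with PBS. For Ccl5 they were 528, 3922 and 13023 CPM with TB and 0, 549 and 5135 CPM with PBS. Ccl5 was thus uneven with PBS, where the 10% of members with the most Ccl5 carried 59.4% of its UMIs, against 36.9% with TB. At 1000 UMIs per cell a Ccl5 UMI was found in 71.3% of members with TB and 51.4% with PBS, and in 3.68% of B cells with TB and 7.98% with PBS. Gzma was found in 85.2% of thinned members with TB and 82.4% with PBS, and in 2.04% of B cells with TB and 9.57% with PBS. The share of such an abundant gene is near its ceiling at this depth and is not compared with the level.

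Gzma and Ccl5 were mostly lower at higher Gzmc inside the limit as well. Across members with no Gzmc UMI, then up to 500, 1000 and 1500 CPM of Gzmc, Gzma stood at 11041, 7347, 4325 and 5966 CPM with TB and at 9697, 6199, 5076 and 4382 CPM with PBS. Ccl5 stood at 8928, 2646, 705 and 873 CPM with TB and at 5717, 2524, 1034 and 527 CPM with PBS. Both genes were highest where no Gzmc was seen. Klf2, a transcription factor that keeps lymphocytes in circulation, had 374, 133, 57.2 and 53.2 CPM with TB and 373, 186, 125 and 44.5 CPM with PBS. Itgam had 136, 66.7, 62.6 and 26.6 CPM with TB and 130.1, 72.1, 35.8 and 14.8 CPM with PBS. Xcl1, a chemokine for cross-presenting dendritic cells, was lowest where no Gzmc was seen, at 758 CPM with TB and 743 CPM with PBS. Gzmb, the main granzyme of activated killer cells, had 4907, 5100, 3742 and 3790 CPM with TB and 4337, 4537, 3505 and 4865 CPM with PBS, with no steady order. Since Gzmc set the steps, these orders are no test.

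**Figure D2:**
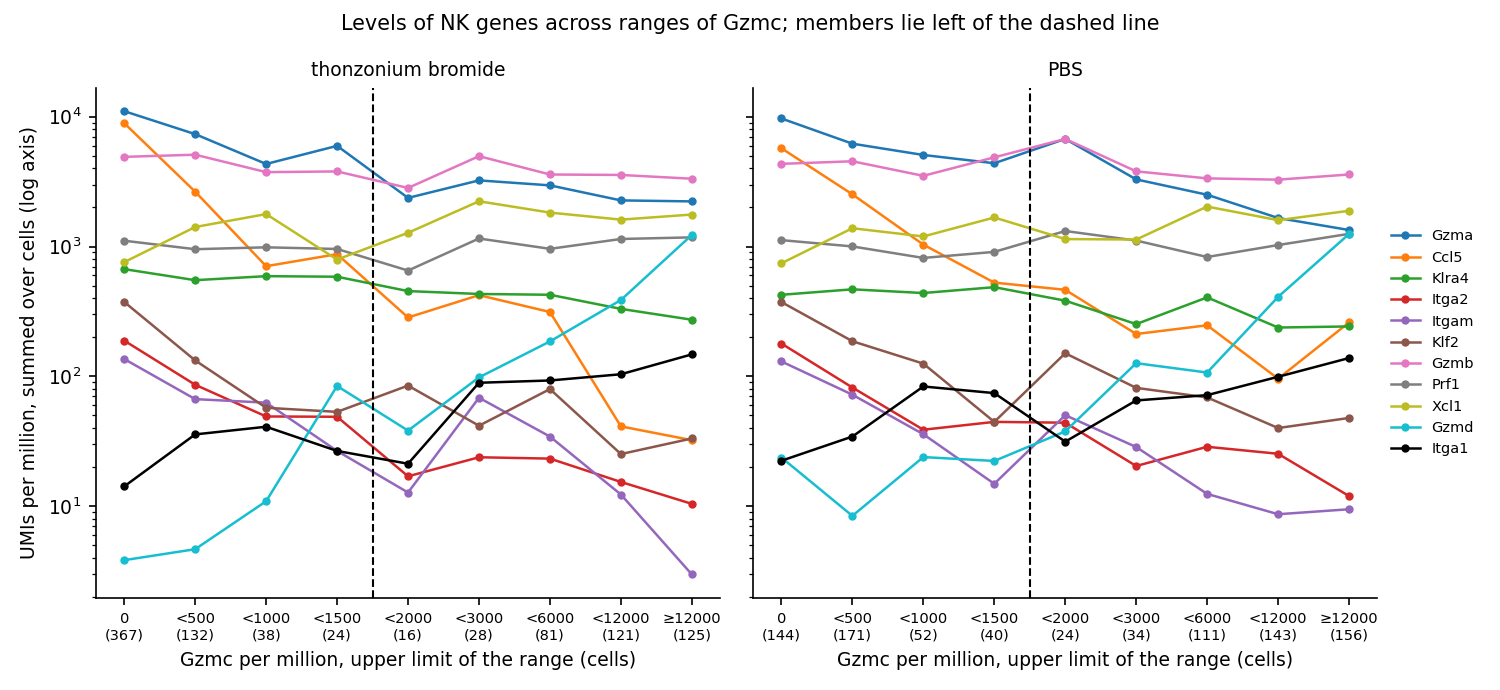
CPM summed over cells (y axis, log scale) of 11 genes across 9 ranges of Gzmc (x axis, with cells per range) in non-cycling NK cells of the thonzonium bromide (left) and PBS (right) libraries; members lie left of the dashed line. Ccl5 stands at 8928 CPM without Gzmc and 32.2 CPM above 12000 CPM of Gzmc with TB, and at 5717 and 260.1 CPM with PBS.

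Gzma and Gzmc are shown with the 250 bases before their starts, since Gzma was highest in members where no Gzmc was seen. The sequences are RefSeq promoter windows of build GRCm38.p6, written 5′ to 3′ on the gene's minus strand, with the RUNX core (TGTGGT or its reverse complement ACCACA) in capitals. The Gzma window is chr13:113100982-113101231 and the Gzmc window chr14:56234658-56234907.
Gzma: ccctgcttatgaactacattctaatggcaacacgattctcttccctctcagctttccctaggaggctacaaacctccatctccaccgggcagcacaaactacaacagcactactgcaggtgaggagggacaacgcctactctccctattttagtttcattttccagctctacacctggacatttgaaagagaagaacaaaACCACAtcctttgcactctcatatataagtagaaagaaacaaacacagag
Gzmc: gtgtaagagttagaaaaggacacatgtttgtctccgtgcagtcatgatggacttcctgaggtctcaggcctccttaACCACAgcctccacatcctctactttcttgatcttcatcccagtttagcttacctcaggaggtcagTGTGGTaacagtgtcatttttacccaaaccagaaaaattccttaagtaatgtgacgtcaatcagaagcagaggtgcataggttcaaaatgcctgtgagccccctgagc
The RUNX core had 1 match in the Gzma window and 2 in the Gzmc window, counting both strands, and 14.0% of all 32851 windows of this length held it. The T-box core (GGTGTG or CACACC), a letter group of the sites for T-bet and Eomes, had no match in either window and was in 16.3% of all windows. The windows of Itga2, Klra4, Klra8 and Klra9 held neither core. A match describes the letters only.

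Over all genes, 738 were at least 1.5-fold higher in members than in Gzmc-high NK cells in both libraries, which was 7.46% of 9894 genes with 50 or more UMIs, and 311 (3.14%) were at least 1.5-fold lower. The rule used this contrast, so nothing is read from these counts. Among the genes furthest above Gzmc-high cells were Ccl5, Itga2, Itgam, Ccl3, Ccl4, H2-Ab1, Cd74, Pde2a, Ifi205 and H2-Aa. Itgam had 105 CPM with TB and 78.0 CPM with PBS in members, and 16.5 CPM with TB and 12.1 CPM with PBS in Gzmc-high cells. Ccl4, a chemokine released by activated NK cells, had 1046 CPM with TB and 839.8 CPM with PBS in members, and 208 CPM with TB and 182 CPM with PBS in Gzmc-high cells. It was uneven among members, since the 5 richest cells carried 32.5% of its UMIs with TB and 50.7% with PBS. Furthest below were Gzmg, Gzmd, Ccl1, Gzme, Gzmf, Myo10, Sema6d, S100a9, S100a8 and Igflr1, which include 4 neighbours of Gzmc in its cluster. Gzmd had 8.68 CPM with TB and 15.8 CPM with PBS in members, and 640.5 CPM with TB and 659.8 CPM with PBS in Gzmc-high cells. Gzmb did not go with them, at 4811 CPM with TB and 4390.2 CPM with PBS in members and 3534 CPM with TB and 3555 CPM with PBS in Gzmc-high cells.

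Of 20 mature NK genes, 12 were at least 1.5-fold above Gzmc-high cells in both libraries and 0 below, where 7.46% of all genes were above and 3.14% below; the rule used this contrast and nothing is read from the count. S1pr5, needed for NK cells to leave lymphoid tissue, had 28.9 CPM with TB and 18.3 CPM with PBS in members, and 2.30 CPM with TB and 2.62 CPM with PBS in Gzmc-high cells. Zeb2, a transcription factor of late maturation, had 196 CPM with TB and 204 CPM with PBS in members, and 84.0 CPM with TB and 84.4 CPM with PBS in Gzmc-high cells. Eomes, which marks conventional NK cells, was closer between the classes, at 237 CPM with TB and 272 CPM with PBS in members and 207 CPM with TB and 232 CPM with PBS in Gzmc-high cells. Itga1 (CD49a), an integrin of tissue-resident cells, had 23.1 CPM with TB and 40.8 CPM with PBS in members, and 114 CPM with TB and 105 CPM with PBS in Gzmc-high cells. Of 22 glycolysis and hypoxia genes 6 were below (3.14% of all genes) and 0 above (7.46% of all genes), from which likewise nothing is read.

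Class II antigen presentation transcripts, normally of antigen-presenting cells, were concentrated in few members. Members with 10 or more UMIs of H2-Aa, H2-Ab1 and Cd74 numbered 41 (7.31%) with TB and 17 (4.18%) with PBS, and such cells were 6.20% of Gzmc-high NK cells with TB and 2.78% with PBS. They were deep, with median UMIs of 14413 with TB and 12073 with PBS, against 6381 with TB and 5751 with PBS in the other members. Their H2-Aa was 4893 CPM with TB and 6325 CPM with PBS, and the other members had 10.9 CPM with TB and 28.2 CPM with PBS. The class II activator Ciita was at 252 CPM with TB and 283 CPM with PBS, and the myeloid gene Ms4a6c at 1173 CPM with TB and 1442 CPM with PBS. Ifi205 stood at 472 CPM with TB and 767 CPM with PBS, against 11.2 CPM with TB and 15.8 CPM with PBS in the other members. Of 7 NK genes compared, Ncr1, Klre1, Gzma, Ccl5, Klra4 and Itga2 were lower there than in the other members of both libraries, while Itgam, which myeloid cells also express, was higher, at 189 CPM with TB and 147 CPM with PBS against 92.7 CPM with TB and 72.6 CPM with PBS. Gzma stood at 2877 CPM with TB and 855 CPM with PBS, against 10065 CPM with TB and 7315 CPM with PBS in the other members. Whether these barcodes hold 2 cells was not tested.

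**Figure D3:**
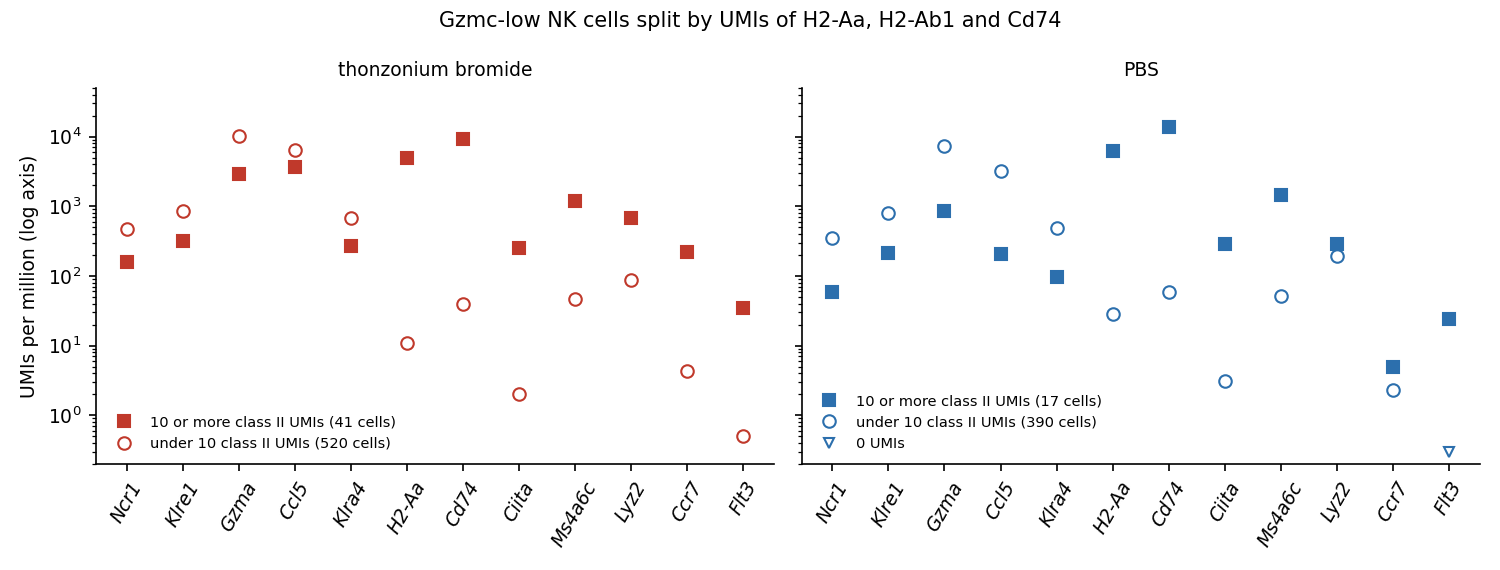
CPM (y axis, log scale) of 12 genes in members with 10 or more class II UMIs (filled squares) and with fewer (open circles; triangles, 0 UMIs) in the thonzonium bromide (left) and PBS (right) libraries. Squares lie below circles for Ncr1, Klre1 and Gzma and above them for H2-Aa, Cd74, Ciita, Ms4a6c and Flt3.

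Between the libraries, few genes of the members differed by a large factor. Of 8474 genes with 50 or more UMIs in members, 289 (3.41%) were at least 1.5-fold higher with TB and 263 (3.1%) at least 1.5-fold lower, by size alone. The median log2 ratio of TB over PBS was 0.01. Fewer cells making a transcript and less of it per cell cannot be told apart in such sums. Ccl5 had the highest ratio of the genes named by size, at 2.00 (1.95 to 2.05, exact conditional binomial 95% interval). It was also higher in T cells, at 4603 CPM with TB and 1100 CPM with PBS, while Gzmc-high NK cells had 125 CPM with TB and 212 CPM with PBS. The ratio was not even along Gzmc. Among members with no Gzmc UMI it was 1.56 (1.51 to 1.61), but among members with 1 or more Gzmc UMIs Ccl5 had 2055 CPM with TB and 2014 CPM with PBS, a ratio of 1.02 (0.98 to 1.07). With the 4 Gzmc steps given the same weights in both libraries it was 1.43. Each weight was the mean of the step's shares of members in the libraries, called equal Gzmc weights below. Members with no Gzmc UMI had median depths of 6128 UMIs with TB and 4391.5 with PBS, and Gzmc UMIs were more frequent in B cells with PBS. The group without a Gzmc UMI may thus not match between the libraries. The part of depth and free RNA in ratios split or weighted by Gzmc was not tested. Sult2b1, a sterol sulfotransferase, had 60.7 CPM with TB and 32.2 CPM with PBS, a ratio of 1.89 (1.48 to 2.42). Its ratio lay between 1.60 and 1.98 under the 14 alternatives. Crem, a cAMP-responsive transcription factor, had 165 CPM with TB and 112 CPM with PBS, and a ratio of 1.48 that was 1.00 in cells thinned to 1000 UMIs. Irf3, which switches on type I interferon genes, had 56.3 CPM with TB and 38.3 CPM with PBS.

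Inducible heat shock genes and Jun were lower with TB. Hspa1b, an inducible HSP70 chaperone, had 109 CPM with TB and 296 CPM with PBS, a ratio of 0.37 (0.33 to 0.41). Hspa1a, its near copy, had 80.3 CPM with TB and 198 CPM with PBS, and reads may be split between this pair. Hsph1, a co-chaperone of HSP70, had 89.7 CPM with TB and 136 CPM with PBS. Jun, a subunit of the AP-1 transcription factor, had 457 CPM with TB and 843 CPM with PBS, a ratio of 0.54 (0.51 to 0.58). A Jun UMI was found in 27.7% of thinned members with TB and 46.3% with PBS. Lars2, a mitochondrial leucyl-tRNA synthetase, had 178 CPM with TB and 376 CPM with PBS, a ratio of 0.47 (0.43 to 0.52). The order was the same in Gzmc-high NK cells. There Hspa1b had 103 CPM with TB and 196 CPM with PBS, Lars2 183 CPM with TB and 361 CPM with PBS, and Jun 357 CPM with TB and 679 CPM with PBS. Ifitm1, an interferon-induced membrane protein, had 229 CPM with TB and 438 CPM with PBS in members, but the 5 richest cells carried 53.6% of its UMIs with TB and 82.0% with PBS. Its ratio was 0.52, and 0.77 without members rich in class II transcripts.

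**Figure D4:**
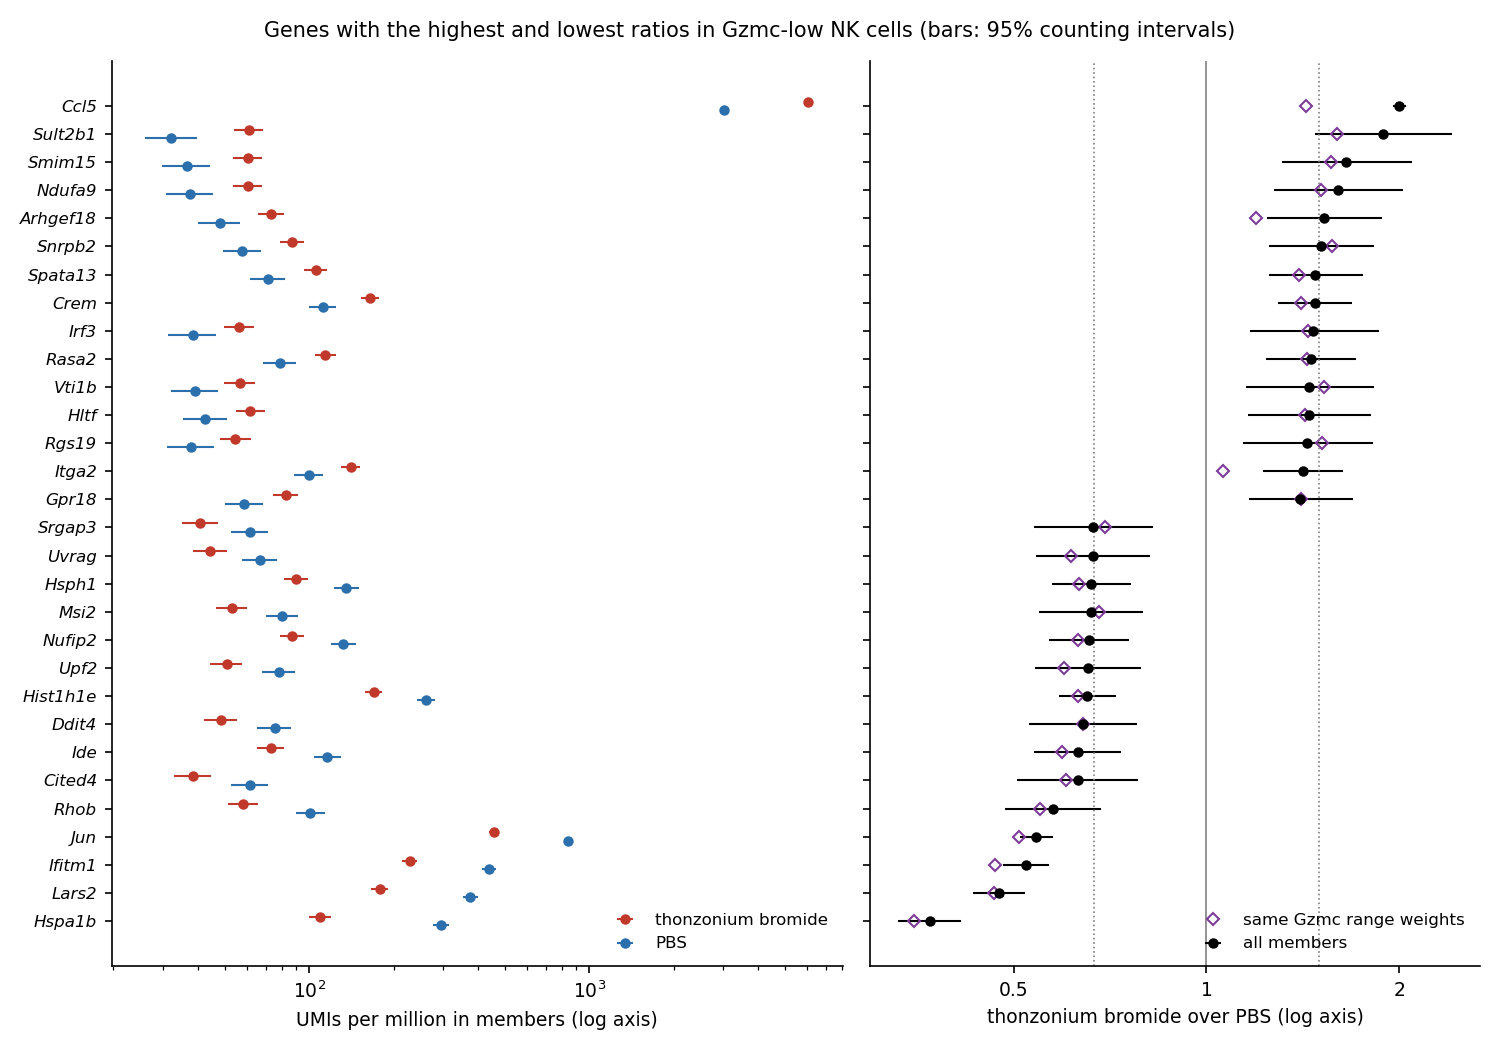
Left, CPM (x axis, log scale) in members of the thonzonium bromide and PBS libraries for the 15 highest and 15 lowest genes by ratio, with exact Poisson 95% intervals. Right, the ratio of TB over PBS (log scale) with its counting interval, and diamonds for the ratio with equal Gzmc weights; Ccl5 and Itga2 have diamonds at 1.43 and 1.06, Hspa1b, Lars2 and Jun at 0.35, 0.46 and 0.51.

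Ly49 receptor genes were measured for 9 of 11. Of these, 0 were 1.5-fold higher with TB (3.41% of all genes) and 1 was lower (3.1% of all genes). Klra4 (Ly49D, activating in C57BL/6 mice) had 625 CPM with TB and 454 CPM with PBS, a ratio of 1.38 (1.29 to 1.47). Klra8 (Ly49H, also activating in C57BL/6 mice) had 486 CPM with TB and 376 CPM with PBS, a ratio of 1.29 (1.2 to 1.39). Which BALB/c genes gave the UMIs counted under these names was not tested. Klra9 (Ly49I, inhibitory) had 258 CPM with TB and 187 CPM with PBS, a ratio of 1.38 that was 0.97 (0.84 to 1.13) among members with no Gzmc UMI and 1.47 (1.26 to 1.72) among the others. The inhibitory receptors Klra7 (Ly49G) and Klra3 (Ly49C) were nearly equal. Klra7 had 508 CPM with TB and 522 CPM with PBS, and Klra3 149 CPM with TB and 154 CPM with PBS. Klra5 was the lower one, from 49 UMIs with TB and 56 with PBS, and Klra1, Klra2 and Klra6 had ratios of 1.2, 1.46 and 1.35. The median log2 ratio of the 9 genes was 0.37, with equal Gzmc weights 0.18, and among members with no Gzmc UMI 0.05. Klra17 had 18 UMIs with TB and 1 with PBS, and Klra10 had 13 UMIs with TB and 11 with PBS, too few to be measured.

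Members also differed in how many Ly49 genes they showed. Thinned to 2000 UMIs, members had UMIs of 1.94 Ly49 genes on average with TB and 1.70 with PBS, and Gzmc-high NK cells of 1.47 with TB and 1.39 with PBS. No Ly49 gene was seen in 17.1% of members with TB and 23.4% with PBS. Klra4 was found in 34.3% (30.4 to 38.4) of members at 1000 UMIs with TB and 23.4% (19.3 to 27.9) with PBS. In B cells it was found in 0 of 489 with TB, an exact upper bound of 0.752%, and in 1.60% with PBS. The genes lie side by side on chromosome 6, with Klra4 at chr6:130043731-130067271, Klra8 at chr6:130115226-130129898 and Klra9 at chr6:130178675-130193112 of GRCm38. That reference is of C57BL/6, while BALB/c mice have a smaller Ly49 cluster and are known to lack genes of it, Ly49H among them. Of runs of 91 bases in the last 500 bases of each reference transcript, 8.05% in Klra3, 9.76% in Klra10 and 1.46% in Klra9 also stood in another Ly49 gene, and 0 in Klra4, Klra8 and the other 6. These runs compare C57BL/6 genes only, so they cannot show which BALB/c genes gave the UMIs counted as Klra4 and Klra8. That was not tested, nor whether the genes counted per member are separate BALB/c genes.

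Other NK receptors and the killing machinery were mostly level. The counts of called genes in these lists stand against 3.41% of all genes higher and 3.1% lower. The lists include the rule genes Klre1, Ncr1 and Gzmc, whose own levels are descriptions only. Of 12 NKG2 and Klrb1 genes 2 were higher with TB and 0 lower: Klrg1, an inhibitory receptor of mature cells, with 41.6 CPM with TB and 23.6 CPM with PBS, and Klri1, from 39 UMIs with TB and 15 with PBS. Klrd1 (CD94), the partner chain of NKG2 receptors, had 1159.8 CPM with TB and 1235 CPM with PBS, and Klrk1 (NKG2D), which senses stress ligands, 944 CPM with TB and 838 CPM with PBS. Of 21 activating receptors and adaptors 1 was higher and 0 lower: Slamf6, from 68 UMIs with TB and 22 with PBS. Of 8 inhibitory receptors Klrg1 was higher and the checkpoint Lag3 lower, at 14.7 CPM with TB and 23.3 CPM with PBS. The median of that list was -0.23, and 0.25 among members with no Gzmc UMI. Of 18 cytotoxic granule genes 0 passed either fold. Prf1, the pore-forming perforin, had 1046 CPM with TB and 1003 CPM with PBS, and the granzyme inhibitor Serpinb6b 629 CPM with TB and 475 CPM with PBS. In the granzyme B cluster 3 of 4 were lower with TB, Gzmc, Gzmd and Gzmf. The rule capped Gzmc, and with TB a single member held 33.3% of Gzmd UMIs and a single member 61.5% of Gzmf UMIs. Nothing is read from this count. Gzmc had 172 CPM with TB and 317 CPM with PBS under the limit that chose the cells. Gzmf had 26 UMIs with TB and 66 with PBS, and its ratio of 0.24 was 3.89 with the limit at 3000 CPM.

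Most mature NK genes were not past either fold, and the list median was smaller with equal Gzmc weights and among members with no Gzmc UMI. Depth and free Gzmc RNA may also set which members show no Gzmc UMI, and their part was not tested. Of 20 genes 4 were at least 1.5-fold higher with TB (Klrg1, Cma1, S1pr1 and S1pr5) and 0 lower, where 3.41% of all genes were higher and 3.1% lower, and the median log2 ratio was 0.23, against 0.01 over all genes. Cma1, a chymase, had 46.5 CPM with TB and 27.2 CPM with PBS, and S1pr5 28.9 CPM with TB and 18.3 CPM with PBS. The S1pr5 ratio of 1.58 was 1.5 or more in 8 of 13 alternatives. Among members with 1 or more Gzmc UMIs the ratio of S1pr5 was 1.00 (0.55 to 1.81) and that of Cma1 0.57 (0.30 to 1.04), and among those with none they were 1.24 (0.79 to 1.99) and 1.32 (0.94 to 1.90). S1pr1, another egress receptor, had 60 UMIs with TB and 23 with PBS, a ratio of 1.62 that was 0.98 among members with no Gzmc UMI and 1.56 (0.62 to 4.13) among the others. With equal Gzmc weights the median of the list was 0.06, and among members with no Gzmc UMI it was 0.03. Under equal weights the ratio was 1.16 for Cma1, 1.16 for S1pr5, 1.05 for Itgam, 1.06 for Itga2 and 1.14 for Gzma, which was 1.34 in all members. For Klra4 it was 1.39 and for Klrg1 1.41. The immature NK list had 0 of 16 genes past either fold and a median of -0.05. In it, Xcl1 had 1031 CPM with TB and 1214 CPM with PBS, and the receptor Cd27 87.7 CPM with TB and 98.4 CPM with PBS.

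**Figure D5:**
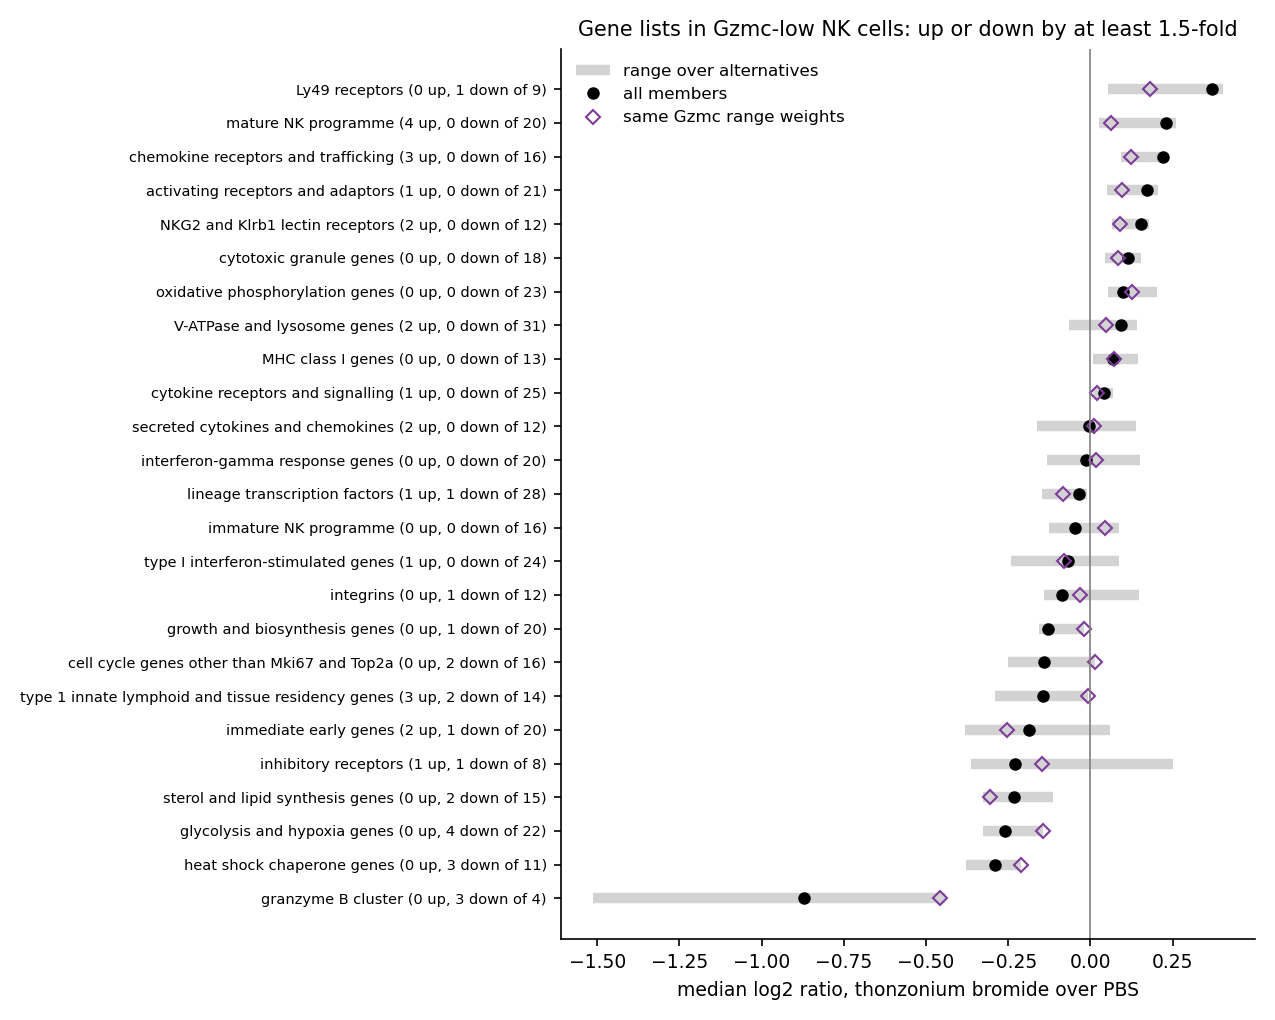
Median log2 ratio of TB over PBS (x axis) of 25 gene lists in members (black points), with equal Gzmc weights (diamonds) and over all alternatives (grey bars); row labels count measured genes at least 1.5-fold up or down. The Ly49 and mature NK lists have medians of 0.37 and 0.23, and diamonds at 0.18 and 0.06. The heat shock list lies at -0.29 and the granzyme B cluster, which holds the rule gene Gzmc, at -0.87.

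Residency and trafficking genes were mixed. Of 14 genes of type 1 innate lymphoid cells and residency, 3 were higher with TB (Tmem176a, Tmem176b and Socs2; 3.41% of all genes) and 2 lower (Itga1 and Inpp4b; 3.1% of all genes). Itga1 had 23.1 CPM with TB and 40.8 CPM with PBS, a ratio of 0.57. Tmem176a had 30.9 CPM with TB and 10.7 CPM with PBS, a ratio of 2.88, and Socs2, a brake on cytokine signalling, 23.4 CPM with TB and 9.67 CPM with PBS, a ratio of 2.42. Without members rich in class II transcripts these ratios were 1.81 and 1.18, and that of Tmem176b was 1.42 in place of 2.40. Of 16 trafficking genes 3 were higher and 0 lower. Among them Ccr7, the receptor that guides cells to lymph nodes, had 138 UMIs with TB and 7 with PBS, and the 5 richest cells held 89.1% of the 138. In members under 10 class II UMIs Ccr7 had 4.32 CPM with TB and 2.32 CPM with PBS. Of 12 integrins Itga1 was lower and 0 were higher.

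Secreted factors, cytokine receptors and lineage factors were mostly below either fold. The counts in these lists stand beside 3.41% of all genes higher with TB and 3.1% lower. Of 12 secreted factors Ccl5 and the cytokine Osm were higher with TB and 0 lower. Osm had 40.3 CPM with TB and 22.9 CPM with PBS, and its ratio of 1.76 was 1.25 among members with no Gzmc UMI and 1.96 among the others. Ifng, the cytokine by which NK cells activate macrophages, had 149 CPM with TB and 209 CPM with PBS, a ratio of 0.71. The ratio was 1.10 (0.90 to 1.35) among members with no Gzmc UMI and 0.47 (0.40 to 0.56) among the others, and the 5 richest cells carried 29.5% of Ifng UMIs with TB and 45.9% with PBS. The median of the secreted list was -0.005, and -0.16 without members rich in class II transcripts. Of 25 cytokine receptor and signalling genes 1 was higher, Socs2, and 0 lower. Il2rb, the shared receptor chain for interleukins IL-2 and IL-15, had 1309 CPM with TB and 1243 CPM with PBS. Of 28 lineage transcription factors Nr4a1 was higher, at 60.1 CPM with TB and 35.4 CPM with PBS, and Ikzf2 (Helios) lower, at 48.9 CPM with TB and 77.3 CPM with PBS. The Nr4a1 ratio of 1.70 was 0.98 in cells thinned to 1000 UMIs.

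Few interferon genes passed either fold. Of all genes, 3.41% were higher with TB and 3.1% lower. Of 24 type I interferon-stimulated genes 1 was higher, Ifit1bl1, at 73.4 CPM with TB and 35.4 CPM with PBS, and its ratio of 2.07 was 1.43 without members rich in class II transcripts. The median log2 ratio of the 24 genes was -0.07, against 0.01 over all genes. It was -0.24 without those members and 0.09 among members with no Gzmc UMI. Isg15, a ubiquitin-like interferon target, had 592 CPM with TB and 631 CPM with PBS. Of 20 interferon-gamma response genes and 13 MHC class I genes 0 passed either fold, with medians of -0.01 and 0.07. The heat shock list was further below 0 than the interferon lists. Of 11 heat shock genes 3 were lower with TB (Hspa1a, Hspa1b and Hsph1), where 3.1% of all genes were, and the median was -0.29, while the constitutive chaperone Hspa8 had 1864 CPM with TB and 1724 CPM with PBS. Of 20 immediate early genes Jun was lower and Nr4a1 and Ier3 higher. Their median was -0.19, and 0.06 with at least 3 receptor UMIs per cell, and the Ier3 ratio of 1.55 was 0.93 without barcodes of other lineages.

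Metabolic lists held few genes past a fold. Over all genes, 3.41% were higher with TB and 3.1% lower. Of 22 glycolysis and hypoxia genes 4 were lower with TB, where 3.1% of all genes were, and 0 higher, with a median of -0.26. They were Bnip3, Slc16a3, Ero1l and Ddit4, of which Ddit4, an inhibitor of mTORC1, had 48.3 CPM with TB and 75.2 CPM with PBS. With PBS a single member carried 30.5% of Bnip3 UMIs, and a single member 17.1% of Ero1l UMIs. For Slc16a3 and Ddit4 the richest PBS member carried 6.94% and 6.19%. The Ero1l ratio of 0.63 was 1.17 among members with no Gzmc UMI and 0.55 among the others. Of 23 oxidative phosphorylation genes 0 passed either fold, and the median was 0.10, against 0.01 over all genes. Of 31 V-ATPase and lysosome genes, which include subunits of the vacuolar proton pump, 2 were higher and 0 lower, with a median of 0.09 that was -0.07 without members rich in class II transcripts. They were the lysosomal membrane gene Cd63, from 65 UMIs with TB and 20 with PBS, and Tfeb, a master factor of lysosome genes, from 64 UMIs with TB and 25 with PBS. The Cd63 ratio of 2.02 was 0.63 with each cell scaled alike. Of 15 sterol and lipid genes Fdps, at 19.8 CPM with TB and 36.5 CPM with PBS, and Insig1 were lower. Of 20 growth genes the amino acid transporter Slc7a5 was lower, and of 16 cell cycle genes outside the rule Ube2c and Hist1h1b were lower, with 0 higher in all 3 lists. Ube2c, a ubiquitin enzyme of mitosis, had 18 UMIs with TB and 48 with PBS.

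Transcripts of other cell types in members also differed between the libraries. Monocyte and macrophage markers, of which all 11 were detected, summed to 699 CPM with TB and 488 CPM with PBS. The 10 dendritic markers, with Cd74 the highest, summed to 2479 CPM with TB and 2200 CPM with PBS. B cell markers summed to 41.2 CPM with TB and 7.16 CPM with PBS, and Jchain, a plasma cell gene, had 0 UMIs in both. Erythroid markers ran the other way, at 2383 CPM with TB and 20109 CPM with PBS. Members with 2 or more UMIs of the B cell genes Cd79a and Cd79b numbered 8 with TB and 1 with PBS, and those with 2 or more of the macrophage genes Csf1r and Adgre1 numbered 14 with TB and 8 with PBS. Without barcodes of other lineages, 252 genes were higher with TB and 276 lower; the part of these transcripts in single differences was not tested further.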

How the data were processed

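RNA of CD45+ tumour cells was captured in 2 libraries with a 10x Genomics 3' kit, per the labels' protocols. The authors deposited raw UMI counts per gene and barcode, written by Cell Ranger 6.1.2 per the file headers; Seurat 3.0, R 3.5.3 and mm10 stand in the submitters' processing notes. The deposited barcodes had at least 501 UMIs with TB and 500 with PBS. Here, counts were summed over members and scaled to CPM, and genes needed 50 UMIs over both libraries. Ratios have exact conditional binomial, levels exact Poisson and shares Clopper-Pearson 95% intervals. With 1 library per group no test was made, and genes are called higher or lower at 1.5-fold by size.

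Genes were named by rule: the 15 highest and 15 lowest ratios (at least 200 UMIs, 50 CPM, an interval without 1, and 25% of the level of any comparison class), the 10 highest and 10 lowest against Gzmc-high NK cells in both libraries, all Ly49 genes and given markers, and from each list the most abundant and up to 3 at either end. Eomes, Klrk1, Prf1, Cd27 and Isg15, and the genes of the class II split, were named after their values were seen. Members, markers and lists were chosen with earlier results of these data known. Alternatives left out barcodes with UMIs of other lineages and the deepest 5% of members, among others. The split at 10 class II UMIs, the equal Gzmc weights and the members with no Gzmc UMI were chosen after seeing the data. Ratio recovery was tested on simulated Poisson counts summed over members. They held no variation between cells, so the intervals were not tested for genes with UMIs concentrated in few members. Tools were Python 3.11.15, numpy 2.4.6, scipy 1.17.1, pandas 2.3.3 and matplotlib 3.10.9; gene coordinates and Ly49 transcripts come from GENCODE on GRCm38.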

Additional observations from a re-analysis of the deposited data

How the results depend on the processing

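The excess of members among kept cells was 3.28 percentage points, and 2.37 among cells of at least 2000 UMIs; under the other 8 alternatives it moved by less than its counting interval, as did the excess among NK cells under all 9. The 289 genes higher and 263 lower became 134 and 160 with each cell thinned to 1000 UMIs, where 2965 genes could be measured, and 371 and 493 with each cell scaled alike. Under the remaining alternatives both counts stayed within 1.5 times. Without members rich in class II transcripts they were 216 and 295. List medians moved in 42 of their recomputed values and stayed in 304, and those near 0, such as secreted factors and interferon-gamma response genes, changed sign under some alternatives. The cause was not tested. Depth limits genes near 50 UMIs. No paired analysis was possible because each group has 1 library.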
